A study of Cunninghamia lanceolata with 18 samples.

Results

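The upper phloem (UP) of Chinese fir clone C1 was compared with the apical bud (AB) of the same clone, gene by gene. Chinese fir (Cunninghamia lanceolata) is a conifer grown for timber, and C1 is a field clone with long internodes. The members are the genes with enough counts in the 6 libraries of these tissues for a test, 23553 of the 46723 genes in the table. The filter left out 23170 genes, of which 15103 had no count in any of the 6 libraries. Each tissue had 3 libraries, described as biological replicates and taken at the time when lateral buds first appeared. UP was the phloem of the main stem next to the AB. All 6 libraries came from untreated trees of 1 genotype, so no genetic variation within C1 was sampled, and which tree gave which library is not stated in the labels. The other 12 of the 18 libraries, 3 each, were C1 lateral buds (LB) and the UP, AB and LB of a short-internode clone, C11, which was sampled on a later day after bud sprouting. Gene names are those of the study, from matches to proteins of other species, and identifiers are shortened to Cl and NG for annotated and newly assembled genes. The table itself names no genes, so the tissue labels could not be checked against markers of phloem or of buds.

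An apical bud holds the shoot meristem and the young leaves around it, whose outer cells lay down a cuticle, while phloem carries sugars, hormones and other signals along the stem. The cuticle is built from cutin, a polyester of oxygenated fatty acids, and from waxes made of very long-chain fatty acids (VLCFAs). VLCFAs are made by repeated rounds of an elongation cycle: a ketoacyl-CoA synthase condenses an acyl-CoA with malonyl-CoA, and reductases and a dehydratase complete the round, the last step being that of enoyl-CoA reductase (ECR). The products are then reduced to alcohols, oxidised, esterified or exported, or are built into sphingolipids. The bud is also a source of auxin, which moves down the stem in vascular tissue, and strigolactones, which restrain lateral buds, act in the same stem.

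The total count was 31525506, 31527488 and 28988639 in UP replicates 1, 2 and 3, against 28734708, 28771667 and 24766529 in AB replicates 1, 2 and 3. The shallowest of the 18 libraries was AB replicate 3, and the range over all 18 was 24766529 to 32005160. Between 27444 and 27963 genes had a count in a UP library, against 26943 to 27435 in an AB library. Precision is that of 3 libraries a tissue, and p-values measure the spread between them.

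AB replicate 3 stood apart from the other AB libraries. Over the 9 C1 libraries, the first principal component (31.3% of the variance over 24454 genes) placed UP replicates 1, 2 and 3 at 97.7, 114 and 102, against -43.6, -96.0 and 27.2 for AB replicates 1, 2 and 3. The third AB library therefore lay between the tissues, on the UP side of 0. Its correlation across genes was 0.959, 0.962 and 0.974 with UP replicates 1, 2 and 3, against 0.956 and 0.950 with AB replicates 1 and 2 (Pearson, log2(CPM + 1) values, across genes that are not independent replicates). AB replicates 1 and 2 correlated at 0.957 with each other and at 0.923 to 0.948 with the UP libraries, and the UP libraries correlated at 0.967 to 0.983 with each other. The second component (20.6%) varied among the replicates of each tissue. It was 56.7, -9.18 and -72.2 in UP replicates 1, 2 and 3, against 88.6, -88.7 and -57.6 in AB replicates 1, 2 and 3, and the LB replicates stood at 98.4, 29.8 and -45.9. Replicate 1 was the highest of its tissue each time, while replicate 2 was above replicate 3 in UP and LB and below it in AB.

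**Figure D1:**
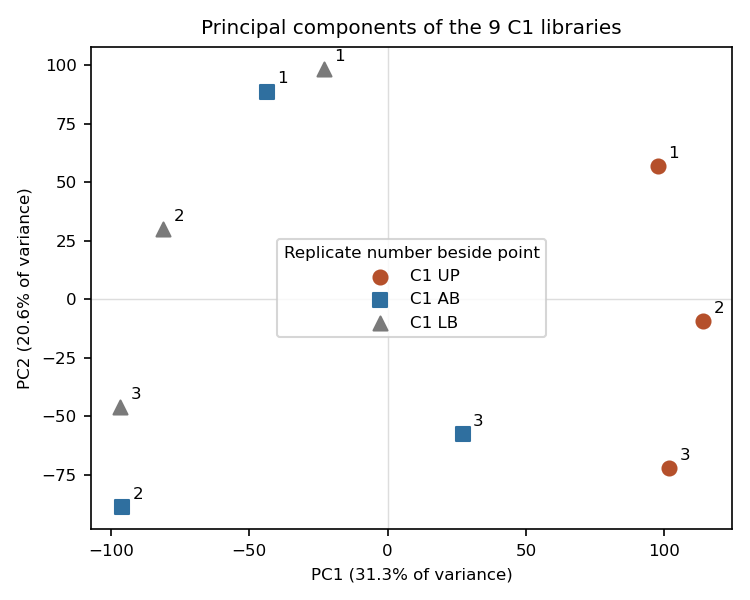
Principal components of the 9 C1 libraries on scaled log2(CPM + 1) values, with PC1 on the x axis (31.3% of the variance) and PC2 on the y axis (20.6%), in arbitrary score units. Points are single libraries of UP, AB and LB with the replicate number beside them: the UP libraries lie at 97.7 to 114 on PC1, and AB replicate 3, at 27.2, lies between them and the other bud libraries.

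The position of AB replicate 3 was measured on genes chosen without it. When it was left out, 192 genes were called higher and 243 lower in UP (fold change of at least 2 at a false discovery rate under 0.05, the rule used throughout). On a log2 scale running from 0 at the UP mean to 1 at the mean of AB replicates 1 and 2, AB replicate 3 had a median position of 0.437 over the 192 genes (quartiles 0.188 and 0.682) and of 0.487 over the 243 genes (quartiles 0.301 and 0.616). It lay between the tissues at 166 of the 192 genes and at 233 of the 243. The UP libraries and AB replicates 1 and 2 both chose the genes and set the scale. A library left out can therefore lie toward UP in part through that choice. AB replicates 1 and 2 could not be scored in this way, since 0 genes were called when either was left out. The C1 LB replicates 1, 2 and 3, which had no part in the choice, had medians of 0.766, 0.874 and 0.971 over the genes higher in UP and of 0.812, 1.03 and 1.07 over the genes lower in UP. C11 AB replicate 2 was intermediate too, at 0.446 and 0.525, against 0.882 and 0.896 for C11 AB replicate 1 and 0.803 and 0.965 for C11 AB replicate 3. A share of UP tissue in a bud sample and a bud of other expression cannot be told apart here, and in bulk tissue fewer cells of a type and less RNA per cell cannot be told apart either.

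Over all 6 libraries, no gene passed the rule for a call: edgeR's quasi-likelihood test called 0 of 23553 genes (0%), and the smallest adjusted p was 0.0723. At an unadjusted p under 0.05 there were 4122 genes (17.5%), 2160 higher in UP (9.17%) and 1962 lower (8.33%). UP and AB did not overlap at 6011 genes (25.5%), 3181 of them higher and 2830 lower in UP. Within those 4122 genes, differences of at least 2-fold numbered 1122 higher and 1015 lower, and those of at least 16-fold 72 higher and 128 lower. The median log2 fold change of all genes tested was 0.02, and the biological coefficient of variation was 0.365.

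Counts of calls differed between fits. UP and AB samples numbered 1 and 3 deviated together, while those numbered 2 did so no more than a pair of different number (the check is given with the processing). A fit with the number as a block called 189 genes (0.802%), 47 higher (0.200%) and 142 lower (0.603%) in UP, with a smallest adjusted p of 0.0339. Without AB replicate 3 the fit without the block called 435 (1.79%), 192 higher (0.790%) and 243 lower (1.00%), and 1023 were called with the block and without that library (4.21%), 569 higher and 454 lower. A fit to all 9 C1 libraries called 255 (1.04%), 89 higher (0.364%) and 166 lower (0.679%). There the block lowered the count, to 78 (0.319%), 39 higher and 39 lower (0.159% each). Of the named genes, 20 were called with the block on 6 libraries and 8 with the block on 9. Those that lost the call included KCS1 Cl31243, TSC10A Cl24641, TSC10B NG_11118, CYP86B1 NG_10946, D27 Cl04245, FAR3 Cl35785 and DFR Cl29306. A fit to all 18 libraries called 1 gene, higher in UP (0.00368%), and a fit to the 9 C1 libraries without AB replicate 3 called 923 (3.67%), 336 higher (1.34%) and 587 lower (2.33%). DESeq2, the program the study used, called 1482 of 26774 genes (5.54%), 680 higher (2.54%) and 802 lower (3.00%). Of the 189 genes called with the block, 176 (93.1%) were among the DESeq2 calls, 75 (39.7%) among those of the 9-library fit and 76 (40.2%) among those made without AB replicate 3, where they were 11.9%, 29.4% and 17.5% of the other list. Called in these 4 fits alike were 58 genes, 14 higher and 44 lower in UP.

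The genes called lower with the block differed by more than those called higher. The size of their log2 fold changes, sign aside, was 1.08 to 7.45, against 1.02 to 6.45 for the 47 called higher, and the median log2 fold change was -2.73 for the 142 and 1.62 for the 47. The median level of the 142 genes was 5.46 CPM in UP and 32.7 CPM in AB, and that of the 47 genes was 47.3 CPM in UP and 13.5 CPM in AB (CPM, counts scaled to a common normalised library size). The groups did not overlap at 133 of the 142 and at 43 of the 47. Over all 23553 genes tested, 2830 were lower and 3181 higher in UP without overlap. The 142 and the 47 were called on these same 6 libraries, so their separation follows in part from that choice and is not further evidence.

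The pink module, a co-expression module that the study built on these same libraries and tied to hormone levels, accounted for many of the genes lower in UP. Of its 981 genes 887 were tested, 772 were lower and 115 higher in UP, and the median log2 fold change was -0.61, against 0.02 over all genes tested. At an unadjusted p under 0.05 were 429 lower and 19 higher, where 8.33% of all genes tested were lower and 9.17% higher at that p. With the block 90 were called lower and 0 higher, where 0.603% of all genes tested were called lower and 0.200% higher. So 90 of the 142 genes called lower and 0 of the 47 called higher belonged to the module. Without AB replicate 3 the median was -0.87, with 110 called lower and 2 higher. Over all genes in that fit, 1.00% were called lower and 0.790% higher. Because the module and every list within it were chosen on these libraries, their direction is not independent evidence. The summed level of the module was 30848, 27209 and 27078 CPM in UP, against 57378, 38111 and 35051 CPM in AB. AB replicate 1 was the highest library, and AB replicate 3 the lowest of its tissue but above each UP library.

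The KEGG lists here hold only the pathway genes that fall in the pink module, and pathway genes outside it were not examined as lists. The module's list for cutin, suberin and wax biosynthesis was lower in UP throughout. All 31 tested of its 32 members had a lower fitted level in UP, with log2 fold changes from -7.18 to -0.38 and a median of -2.73. At an unadjusted p under 0.05 were 26 (8.33% of all genes tested were lower at that p). The groups did not overlap at 22 (2830 of all 23553 genes were lower without overlap). Called lower were 13 with the block (0.603% of all genes), 11 without AB replicate 3 (1.00%), 13 in the 9-library fit (0.679%) and 21 by DESeq2 (3.00%). Summed over the list, the level was 481, 307 and 289 CPM in UP replicates 1, 2 and 3, against 2157, 835 and 693 CPM in AB replicates 1, 2 and 3. Replicate 1 was the highest of each tissue. The median was -1.90 without AB replicate 1, -3.46 without AB replicate 3 and -3.57 without UP replicate 1.

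The 20 genes of highest degree in the module's network are mostly named for VLCFA synthesis, modification and transport, and in every one each AB library was above each UP library in CPM. Their median log2 fold change was -4.19, all 20 had an unadjusted p under 0.05, and 12 were called with the block, 10 without AB replicate 3, 13 in the 9-library fit and 19 by DESeq2. The median was -3.36 without AB replicate 1 and -4.51 without AB replicate 3. Their summed level was 719, 512 and 505 CPM in UP, against 2914, 1383 and 1192 CPM in AB.

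**Figure D2:**
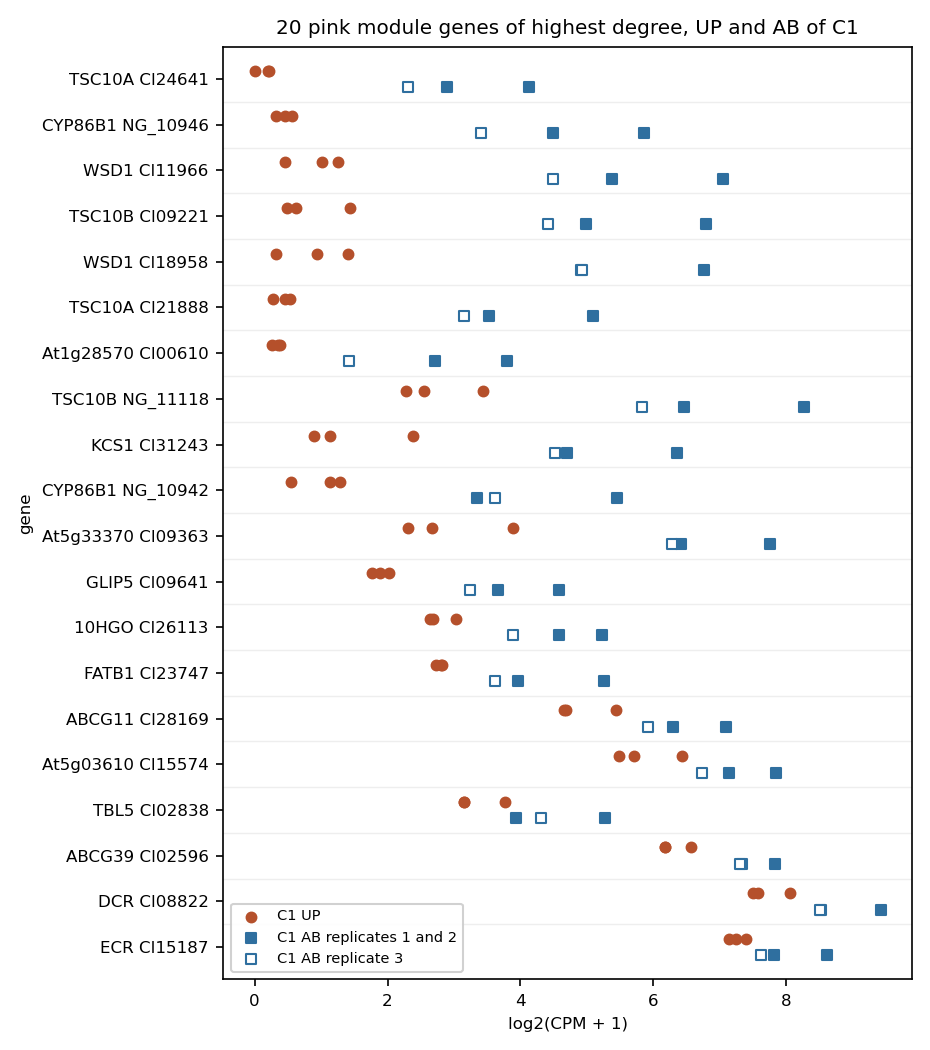
Level of the 20 genes of highest degree in the pink module, one gene a row, as log2(CPM + 1) on the x axis. Circles are the 3 UP libraries, filled squares AB replicates 1 and 2 and open squares AB replicate 3: the UP circles lie to the left of every square in each row, and AB replicate 3 is often the square nearest to them.

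Among the genes named for the steps before modification were KCS1, ECR and FATB1. KCS1 Cl31243, a ketoacyl-CoA synthase, had 131, 28 and 35 counts in UP and 2324, 780 and 561 counts in AB, a log2 fold change of -4.36 ± 0.85 (SE, adjusted p = 0.107) that was called with the block (adjusted p = 0.0342) but not without AB replicate 3 (adjusted p = 0.062). ECR Cl15187, the final reductase, had 5238, 4921 and 4122 counts in UP and 11115, 6976 and 5009 in AB, where AB replicate 3 was above UP replicate 1 only once scaled to CPM, with a log2 fold change of -0.82 ± 0.27 and an adjusted p of 0.211 that stayed above 0.05 with the block (0.127). FATB1 Cl23747, a thioesterase that releases saturated fatty acids from the plastid carrier protein, had 187, 197 and 166 counts in UP and 1069, 454 and 289 in AB (log2 fold change -1.84 ± 0.46, adjusted p = 0.143). Over the module's list for fatty acid elongation the 15 members, all tested, were lower in UP, from -5.75 to -0.41 with a median of -1.41. Of them 12 had an unadjusted p under 0.05 (8.33% of all genes were lower at that p) and 4 were called with the block (0.603% of all genes). KCS1 Cl31243 was thus near the low end of its list, and Cl04700, Cl04879 and Cl14180, chosen after their values were seen, had log2 fold changes of -0.41, -0.61 and -0.72. The fatty acid biosynthesis list, which holds the plastid steps before elongation, had a median of -0.68 over 10 members, with 5 at an unadjusted p under 0.05 and 1 called with the block.

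Genes named for the sphingolipid branch were among those furthest apart. TSC10A and TSC10B are reductases of sphingoid base synthesis in Arabidopsis. TSC10A Cl24641 had 5, 5 and 0 counts in UP and 469, 201 and 101 in AB (log2 fold change -6.34 ± 0.96, adjusted p = 0.091, with the block 0.0425). TSC10A Cl21888 had 14, 7 and 11 counts in UP and 944, 330 and 202 in AB (-5.63 ± 0.72, adjusted p = 0.086, with the block 0.0365). The most counted of them was TSC10B NG_11118. It had 307, 125 and 143 counts in UP and 8787, 2727 and 1425 in AB (-4.61 ± 0.79, adjusted p = 0.0914, with the block 0.0365). TSC10B Cl09221 had 53, 13 and 16 counts in UP and 3150, 963 and 523 in AB (-5.93 ± 0.94, adjusted p = 0.0914, with the block 0.0342). All 4 were also called without AB replicate 3. A further pair, TSC10A Cl29930 and TSC10A Cl27148, each had a log2 fold change of -2.67, with an adjusted p with the block of 0.0425 and 0.0501. Reads of such similar copies could have been split between them, and how the counting treated such reads is not given in the sources used here. Of the 17 tested members of the sphingolipid list 16 were lower in UP, the median was -2.98, and 11 were called with the block (0.603% of all genes were called lower in that fit). The exception, Cl26953, had 1571, 2003 and 1616 counts in UP and 1149, 1210 and 1146 in AB (log2 fold change 0.42), and was chosen for mention after its values were seen.

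The genes that modify VLCFAs were lower in UP over a wide range of sizes. CYP86B1, a cytochrome P450 that in Arabidopsis oxidises very long chains for suberin, was represented by NG_10946 and NG_10942. NG_10946 had 15, 8 and 11 counts in UP and 1630, 668 and 247 in AB (log2 fold change -6.32 ± 0.80, adjusted p = 0.086, with the block 0.0373). NG_10942 had 45, 15 and 35 counts in UP and 1223, 287 and 289 in AB (-4.36 ± 0.79, adjusted p = 0.0941, with the block 0.0425). Of the pair named for WSD1, a wax ester synthase, Cl18958 had 51, 8 and 27 counts in UP and 3082, 905 and 750 in AB (-5.90 ± 0.89, adjusted p = 0.091, with the block 0.0342). The other copy, WSD1 Cl11966, had 32, 12 and 41 counts in UP and 3762, 1267 and 549 in AB (-6.13 ± 0.91, adjusted p = 0.0889), and was called without AB replicate 3 (0.0374) but not with the block (0.061). DCR Cl08822, an acyltransferase needed for cutin in Arabidopsis, differed far less. It had 8280, 5869 and 5581 counts in UP and 19580, 11485 and 9280 in AB (-1.16 ± 0.30, adjusted p = 0.149, with the block 0.0567). FAR3 Cl35785, named for a reductase that makes fatty alcohols, had 230, 108 and 65 counts in UP and 1084, 479 and 215 in AB (-2.26 ± 0.69, adjusted p = 0.187, with the block 0.0365).

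For lipid export and lipases the differences were mostly smaller. ABCG11 Cl28169, which in Arabidopsis exports cutin and wax components, had 1322, 811 and 717 counts in UP and 3861, 2425 and 1523 in AB (log2 fold change -1.58 ± 0.37, adjusted p = 0.13, with the block 0.0395). ABCG39 Cl02596, of the same transporter family, had 2910, 2333 and 2108 counts in UP and 6477, 5016 and 4032 in AB (-1.21 ± 0.20, adjusted p = 0.0914, with the block 0.041). Among genes named for GDSL esterases and lipases, a family with members that build or cut cutin, the largest difference was that of At1g28570 Cl00610. It had 6, 10 and 8 counts in UP and 368, 173 and 43 in AB (-4.69 ± 0.82, adjusted p = 0.0914), and was called without AB replicate 3 (0.0348) but not with the block (0.0834). At5g33370 Cl09363 was called with the block (0.0339): it had 431, 175 and 116 counts in UP and 6151, 2646 and 1973 in AB (-4.03 ± 0.66). GLIP5 Cl09641 and At5g03610 Cl15574 had log2 fold changes of -2.41 ± 0.40 and -1.40 ± 0.37; the first was called without AB replicate 3 (0.0413) and the second with the block (0.0365). The last members of the 20 are 10HGO Cl26113, a terpenoid oxidoreductase, and TBL5 Cl02838, of a family that acetylates wall polysaccharides, with log2 fold changes of -2.05 ± 0.37 and -1.32 ± 0.41. Neither was called with the block (0.0599 and 0.0745), and 10HGO was called without AB replicate 3 (0.039).

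The spread between AB libraries differed from gene to gene. Cl19141 of the cutin list, chosen after its values were seen, had 280, 270 and 245 counts in UP and 739, 704 and 653 in AB, so that the libraries of each tissue lay close together. Its log2 fold change was -1.54 ± 0.14, and it was called with the block and without AB replicate 3. At the other end of the list, Cl18869 had 7, 2 and 3 counts in UP and 1045, 368 and 152 in AB, a log2 fold change of -7.09, and Cl33978 had 31, 5 and 7 counts in UP and 2623, 751 and 409 in AB. In both genes AB replicate 1 was far above AB replicate 3.

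The other KEGG lists of the module ran the same way, to very different degrees. Of the 101 lists 44 had at least 5 members, and the median was below 0 in all 44, from -2.98 for sphingolipid metabolism to -0.13 for propanoate metabolism. A call with the block was found in 17 of them, none of it higher in UP. For all lists that follow, the shares over all genes tested were 0.603% called lower with the block and 3.00% by DESeq2. At an unadjusted p under 0.05 the share lower was 8.33%. Every list is a part of the pink module, in which 429 of 887 tested genes were lower at that p. With the block, 90 of the 887 were called lower, and the module's median was -0.61. A list near those values shows no more than membership of the module. Glycerolipid metabolism had a median of -1.57 over 16 genes, with 11 lower at an unadjusted p under 0.05 and 5 called with the block. One of its members, Cl01946, chosen after its values were seen, had 22, 6 and 8 counts in UP and 4604, 1792 and 282 in AB. Plant-pathogen interaction had a median of -1.71 over 24 genes, with 7 called with the block. This list shares 12 members with fatty acid elongation, and the 12 tested of the other 15 had a median of -1.58, with 3 called with the block. ABC transporters had a median of -1.21 over 9 genes and 4 calls with the block.

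Signalling lists and lists of phenolic compounds had medians below 0 as well. Plant hormone signal transduction had a median log2 fold change of -0.96 over 22 genes (11 lower at an unadjusted p under 0.05, 4 called with the block), and the plant MAPK list one of -1.50 over 11 genes (6 lower, 2 called with the block). Without AB replicate 1 the hormone list's median was -0.55. A hormone signalling member, Cl17385, chosen after its values were seen, had 16, 6 and 8 counts in UP and 343, 660 and 43 in AB. Flavonoid biosynthesis had a median of -1.68 over 4 genes, with 3 called with the block, and phenylpropanoid biosynthesis, the route to lignin and lignans, one of -1.39 over 6 genes with 0 called with edgeR and the block, 4 lower at an unadjusted p under 0.05 in the test without it, and 3 called by DESeq2.

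Lists of central carbon metabolism ranged widely. Starch and sucrose metabolism had a median of -1.33 over 13 genes, with 9 lower and 1 higher at an unadjusted p under 0.05 and 1 called lower with the block. The higher gene, Cl08359, had 30, 50 and 11 counts in UP and 4, 4 and 7 in AB and was chosen after its values were seen. Glycolysis and gluconeogenesis had a median of -0.42 over 21 genes, with 9 lower and 1 higher, and carbon metabolism one of -0.23 over 25 genes, with 6 lower and 2 higher. In neither list did edgeR call a gene with the block, and DESeq2 called 4 and 2 lower.

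**Figure D3:**
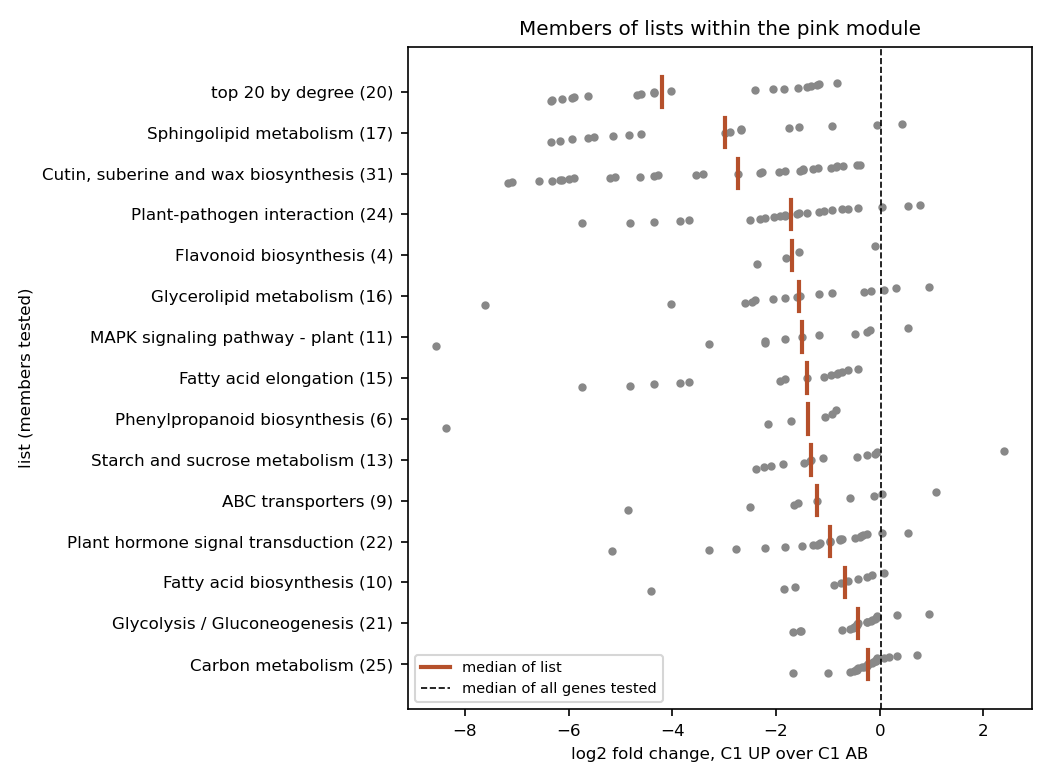
Fitted log2 fold change of UP over AB in C1 (x axis) for each tested member of lists within the pink module (rows, with the number of members tested). Points are genes, vertical bars are list medians and the dashed line is the median of all genes tested (0.02): every list median lies left of it, from -4.19 for the 20 genes of highest degree to -0.23 for carbon metabolism.

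Of the 6 strigolactone genes 3 had a higher and 3 a lower fitted level in UP, with a median log2 fold change of 0.15. D27 Cl04245, the carotene isomerase of the first step, had 375, 454 and 149 counts in UP and 68, 50 and 20 in AB (log2 fold change 2.69 ± 0.54, adjusted p = 0.109), and was called with the block (0.0425) but not without AB replicate 3 (0.0856). CCD Cl15579, named for a carotenoid cleavage dioxygenase, had 790, 1291 and 309 counts in UP and 62, 72 and 71 in AB (3.37 ± 0.50, adjusted p = 0.0889, with the block 0.073), and was called by DESeq2, and with the block once AB replicate 3 was left out (0.016). In both genes UP replicate 3 was the lowest UP library and still above every AB library. DAD2 Cl22349, the receptor, had 1630, 1344 and 915 counts in UP and 3900, 1873 and 2002 in AB (-1.15 ± 0.34, adjusted p = 0.183), and was called by DESeq2 (0.0291). CCD4 Cl29135, which cleaves carotenoids to other products, overlapped between the tissues, with 204, 96 and 70 counts in UP and 496, 197 and 139 in AB (-1.30 ± 0.59, adjusted p = 0.322). Each same-numbered pair had the lower level in UP, and with the block its log2 fold change was -1.24 ± 0.19 (adjusted p = 0.0737), which is no call.

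For PDR1, in petunia an exporter of strigolactones, the result turned on AB replicate 3. PDR1 Cl33669 had 298, 270 and 193 counts in UP and 37, 42 and 381 in AB, so that 1 AB library was above every UP library. The log2 fold change was 0.48 ± 0.95 (adjusted p = 0.838) and 2.58 without AB replicate 3 (adjusted p = 0.0374, a call). The other copy, PDR1 Cl32575, had 145, 139 and 94 counts in UP and 115, 166 and 108 in AB (-0.17 ± 0.25, adjusted p = 0.772).

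Of the genes that inactivate hormones, BAS1 Cl22875 was the most counted. BAS1 is a cytochrome P450 that in Arabidopsis hydroxylates brassinosteroids to inactive forms. Cl22875 had 3454, 3365 and 3680 counts in UP and 453, 749 and 2019 in AB: the UP libraries were close together, and AB replicate 3 lay between them and the other AB libraries. The log2 fold change was 1.51 ± 0.58 (adjusted p = 0.26) and 2.47 without AB replicate 3 (adjusted p = 0.0348, a call). The remaining BAS1 copies Cl34399, Cl30167 and Cl15277 had log2 fold changes of 0.22, 0.65 and 0.82 and were not called in any fit of UP against AB in C1. DWF4 Cl09250, an enzyme of brassinosteroid synthesis, had 43, 22 and 7 counts in UP and 15, 6 and 13 in AB, and CYP720B2 Cl19011, a cytochrome P450, had 23, 8 and 26 in UP and 42, 102 and 31 in AB (-1.68 ± 0.62, adjusted p = 0.248). Among receptor-like kinases the study lists with the hormone, LRK10 Cl32790 had 55, 70 and 51 counts in UP and 6, 13 and 50 in AB, a log2 fold change of 1.13 ± 0.78 and of 2.53 without AB replicate 3, without a call in either fit (adjusted p = 0.496 and 0.0653). LRK10 Cl29067, LRK10 Cl16476 and SD25 Cl18899 had log2 fold changes of 0.43, -0.26 and 0.43, and the groups overlapped in each.

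Genes for the disposal of auxin and cytokinin were not called with the 6 libraries, with or without the block. DAO, a dioxygenase, oxidises the auxin indole-3-acetic acid. NG_15463, named for it, had 89, 105 and 94 counts in UP and 24, 0 and 27 in AB, with no overlap (log2 fold change 2.29 ± 1.04, adjusted p = 0.319). The copies NG_11922 and Cl07806 did not separate the tissues. NG_11922 had 52, 11 and 5 counts in UP and 43, 12 and 7 in AB (0.00 ± 1.02), and Cl07806 had 209, 87 and 72 in UP and 132, 101 and 104 in AB (-0.02 ± 0.44). The copy Cl18198 had 7, 0 and 0 counts in UP and 4, 2 and 0 in AB and did not pass the filter, and NG_15483, also named DAO, was not analysed here. UGT85A1 Cl12956, a glucosyltransferase for cytokinins, had 283, 275 and 109 counts in UP and 67, 38 and 113 in AB (1.41 ± 0.55, adjusted p = 0.268). UP replicate 3 and AB replicate 3 met in this gene, and with the block and without AB replicate 3 it was called (2.31, adjusted p = 0.0468).

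**Figure D4:**
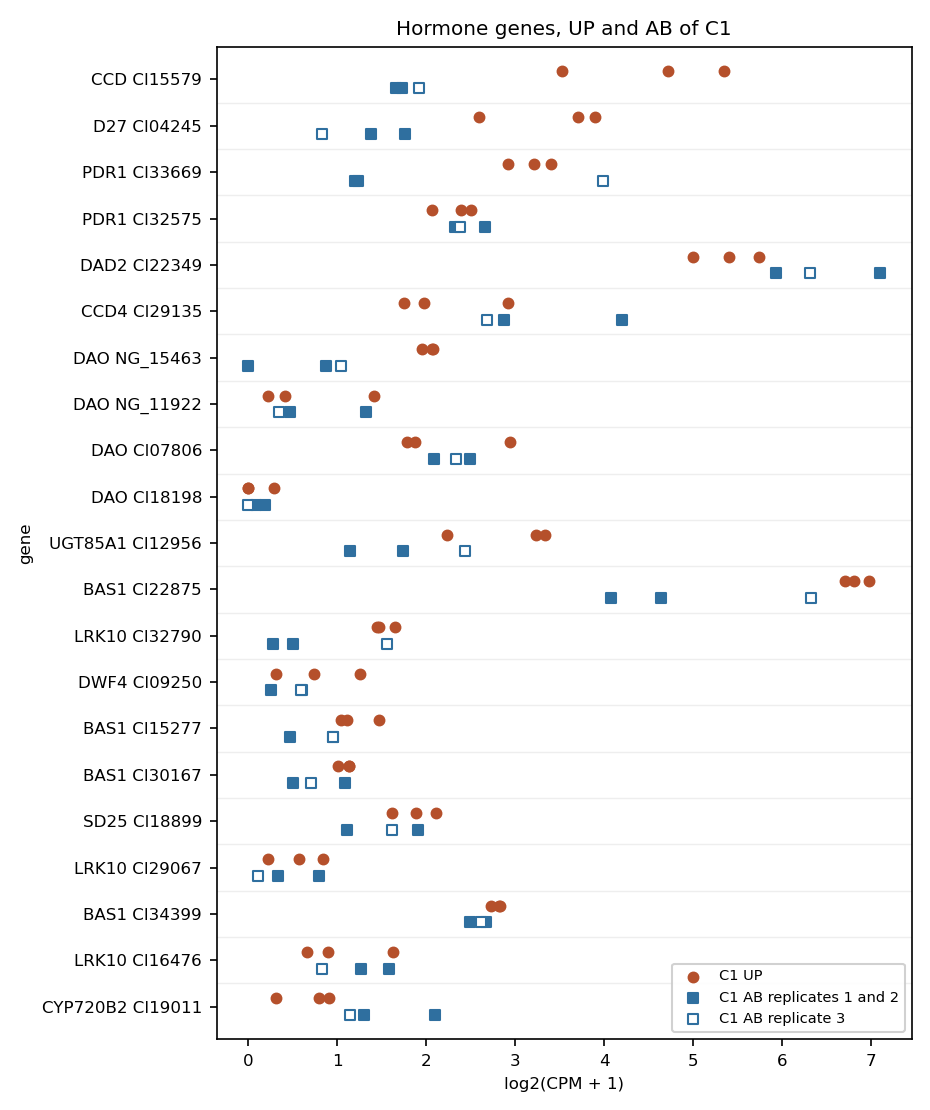
Level of the hormone genes, one gene a row, as log2(CPM + 1) on the x axis, with the same symbols for UP, AB replicates 1 and 2 and AB replicate 3 as for the genes of highest degree. In PDR1 Cl33669, BAS1 Cl22875 and LRK10 Cl32790 the open square of AB replicate 3 lies at or near the UP circles, while in CCD Cl15579 and D27 Cl04245 it lies with the other AB libraries.

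Other named genes of the module covered phenolics, walls and signalling. DFR Cl29306, named for the dihydroflavonol reductase of anthocyanin synthesis, was called with the block (adjusted p = 0.042), without AB replicate 3 (0.0396) and in the 9-library fit (0.0494). It had 745, 515 and 390 counts in UP and 4045, 2679 and 1138 in AB (log2 fold change -2.37 ± 0.46, adjusted p = 0.105). XYN5 Cl13545, a xylanase, had 73, 75 and 92 counts in UP and 345, 324 and 166 in AB (-1.90 ± 0.30, adjusted p = 0.0914), and IRK Cl21977, a receptor kinase, had 1085, 1409 and 1234 in UP and 4971, 3610 and 1503 in AB (-1.54 ± 0.38, adjusted p = 0.137). Both were called without AB replicate 3 (0.0396 and 0.0374) and neither with the block (0.0907 and 0.146). PLR_Tp2 Cl08127, named for a lignan reductase, and ODO1 Cl01466, a MYB factor that in petunia acts on the route to benzenoids, had log2 fold changes of -2.79 ± 0.67 and -1.78 ± 0.61 and adjusted p-values of 0.132 and 0.22.

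PMEI3 Cl27779, an inhibitor of pectin methylesterase, had 951, 882 and 864 counts in UP and 1259, 776 and 566 in AB (log2 fold change -0.07 ± 0.27). PP2C Cl14378, a protein phosphatase, CYP709B2 Cl26065 and At4g22110 Cl15730 had log2 fold changes of -0.76, -1.07 and -0.42, with adjusted p-values of 0.256, 0.328 and 0.474. ABCC10 Cl15898, a transporter, was the only one of these with a higher level in UP, at 80, 201 and 177 counts in UP and 29, 52 and 110 in AB (1.08 ± 0.61, adjusted p = 0.41). PARC Cl08351 had 296, 206 and 162 counts in UP and 518, 352 and 0 in AB, and a log2 fold change of -0.47 that was 0.43 with the block. CER2 Cl17116, a wax gene by name, had 6, 0 and 4 counts in UP and 38, 20 and 8 in AB and did not pass the filter. The study gives that identifier a second name elsewhere.

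Some genes were at 0 in all libraries of UP or of AB, though each had counts in the C1 LB libraries. With at least 10 counts in each library of the tissue that had them, 18 genes had no count in any UP library and 11 had none in any AB library. With the empty group set at a summed total of 3 counts as its floor, the levels in UP were at least 20.4-fold to 195-fold lower for the 18 and at least 12.5-fold to 112-fold higher for the 11. Of the 18, 7 were pink module genes, and of the 11 none was. The module holds 981 of the 46723 genes in the table and 887 of the 23553 tested. It also holds 429 of the 1962 genes lower in UP at an unadjusted p under 0.05. Among the 7, Cl24710 of the aminoacyl-tRNA list had 0 counts in each UP library and 114, 41 and 13 in AB (at least 61.2-fold lower in UP). Cl22338 of the MAPK list had 0 in UP and 79, 48 and 10 in AB (at least 49.9-fold), and Cl05780 of the phenylpropanoid list had 0 in UP and 87, 20 and 11 in AB (at least 43.0-fold). In all of these AB replicate 3 was the lowest AB library.

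Outside the pink module and the other lists, the genes of lowest p with no overlap and a fold change of at least 2, a pair in each direction, have no name in the sources used here. They were chosen after their values were seen. Cl16731 had 1281, 1598 and 1181 counts in UP and 414, 391 and 343 in AB (log2 fold change 1.68 ± 0.14), and Cl09679 had 264, 335 and 241 in UP and 36, 26 and 27 in AB (3.09 ± 0.26). Cl12216 had 61, 92 and 96 counts in UP and 449, 725 and 479 in AB (-2.85 ± 0.27), and Cl36147 had 285, 319 and 321 in UP and 1405, 1431 and 797 in AB (-2.09 ± 0.21). Each had an adjusted p of 0.0723. In Cl16731 and Cl09679 all 3 AB libraries, AB replicate 3 among them, lay close together and far from UP. All 4 genes were called with the block, without AB replicate 3 and by DESeq2.

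The same contrast in C11 shares no library with that in C1. Here too edgeR called 0 genes, of 24147 tested, with 1472 at an unadjusted p under 0.05 (6.10%), a smallest adjusted p of 0.750 and a coefficient of variation of 0.683. With the block the count was 0, and DESeq2 called 416 (1.52%), 149 higher and 267 lower. The share of genes with the same direction in C11 is set beside that over all genes tested in both clones, without a test. Of the genes called lower in C1 with the block, 139 were tested in C11 and 135 (97.1%) were lower there too, 88 of them at an unadjusted p under 0.05, where 68.1% of all 10602 genes lower in C1 were lower in C11. Of those called higher, 35 of 40 (87.5%) were higher in C11, 4 of them at an unadjusted p under 0.05, against 69.4% of all 11502 genes higher in C1. Over all genes tested in both clones, 6.57% of those lower in C1 and 4.57% of those higher had the same direction in C11 at that p. Genes at an unadjusted p under 0.05 in C1 are a closer base. Of these, 87.5% of 1857 lower and 82.0% of 2031 higher genes kept their direction in C11, 25.7% and 11.3% at that p there. The median log2 fold change in C11 was -3.04 for the genes called lower in C1 and 0.73 for those called higher. For the calls made without AB replicate 3 the shares were 96.6% of 238 lower and 89.0% of 182 higher. Of the 142 genes called lower with the block, 90 belong to the pink module, which the study built on libraries of both clones. The direction of those 90 in C11 is not independent evidence.

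The lipid lists were lower in UP of C11 as well. They come from the module that the study built on its RNA-seq libraries, those of C11 among them. Their direction in C11 is therefore not independent evidence either. The median log2 fold change in C11 was -2.88 for the cutin, suberin and wax list (30 of 30 tested lower, 20 at an unadjusted p under 0.05), -2.08 for fatty acid elongation (15 of 15, 11), -3.14 for sphingolipid metabolism (15 of 17, 13) and -3.85 for the 20 genes of highest degree (20 of 20, 17). Over all 24147 genes tested in C11, 3.29% were lower at that p. Of the 44 KEGG lists, 43 had a median below 0 in C11. KCS1 Cl31243 averaged 1.81 ± 3.07 CPM in C11 UP and 74.9 ± 60.4 CPM in C11 AB (SD, n = 3 each), and CYP86B1 NG_10946 averaged 0.449 ± 0.778 CPM in C11 UP and 55.0 ± 31.4 CPM in C11 AB (SD, n = 3 each).

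**Figure D5:**
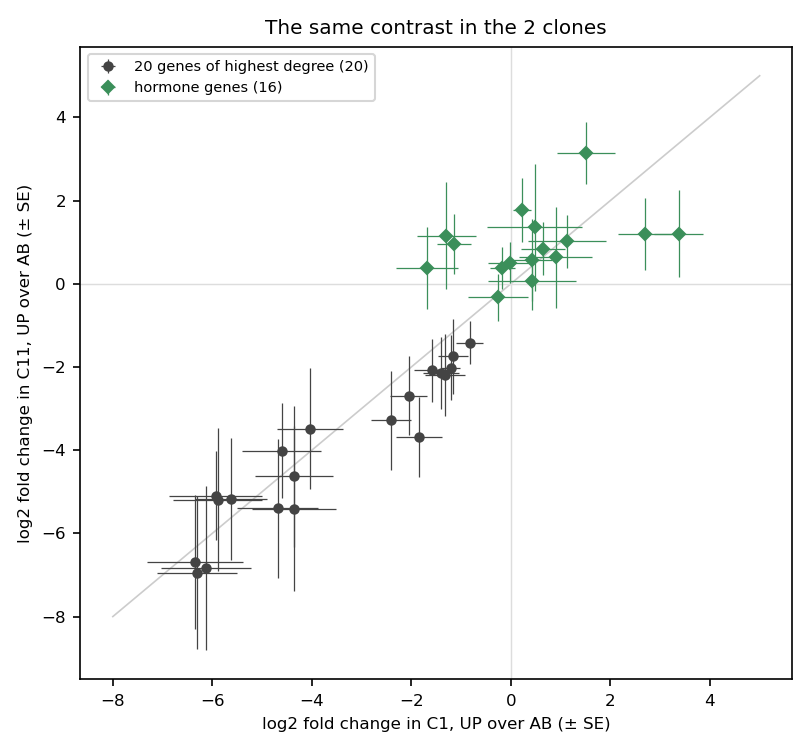
Log2 fold change of UP over AB in C1 (x axis) and in C11 (y axis) with bars of 1 SE, for the 20 genes of highest degree (circles) and the 16 hormone genes tested in both clones (diamonds), with a grey line where the values are equal. The circles lie at the lower left, below 0 in both clones, while the diamonds scatter. Below 0 in C1 and above 0 in C11 are DAD2, CCD4, CYP720B2, PDR1 Cl32575 (-0.17 in C1) and DAO Cl07806 (-0.02 in C1).

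Among the hormone genes, BAS1 Cl22875 was higher in UP of C11 too, at 22.3 ± 8.65 CPM in C11 UP and 2.49 ± 2.25 CPM in C11 AB (SD, n = 3 each, log2 fold change 3.15 ± 0.75, unadjusted p = 0.00477 and adjusted p = 0.762 in edgeR). D27 Cl04245 and CCD Cl15579 had log2 fold changes of 1.20 ± 0.87 and 1.21 ± 1.04 in C11. DAD2 Cl22349 averaged 69.5 ± 66.1 CPM in C11 UP and 35.2 ± 13.5 CPM in C11 AB (SD, n = 3 each), a log2 fold change of 0.96 ± 0.71 where that in C1 was -1.15 ± 0.34. The difference of these folds, C1 minus C11, was -2.11 ± 0.86 (adjusted p = 1.00 in edgeR's interaction test). UGT85A1 Cl12956 had no count in C11 UP or AB.

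No gene's tissue difference was called different between the clones by edgeR: 0 of 26088 genes passed an adjusted p of 0.05 for the interaction, with 740 at an unadjusted p under 0.05 (2.84%). DESeq2 called 16 (0.0487%), a fit to all 18 libraries 2 (0.00736%), and the fit with the block 0. Of the pink module's 931 genes in that test, 23 had an unadjusted p under 0.05. Cl09679, a gene without a name chosen for its low p in C1, stood at 8.97 ± 1.12 CPM in C1 UP and 1.05 ± 0.213 CPM in C1 AB, with 0.868 ± 0.372 CPM in C11 UP and 2.05 ± 3.01 CPM in C11 AB (SD, n = 3 each). Its interaction, C1 minus C11, was 4.32 ± 1.41 on the log2 scale, with an adjusted p of 1.00. Clone and sampling day cannot be told apart in this difference.

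Against the C1 lateral bud, UP gave far more calls. Both comparisons use the same UP libraries, so each is given by its own values. edgeR called 1958 of 23922 genes between UP and LB (8.18%), 885 higher and 1073 lower in UP, and 0 of 23412 between LB and AB (1160 at an unadjusted p under 0.05, 4.95%; DESeq2 called 133). The count for UP against LB ranged from 590 to 2045 when a library was left out: it was 590 without UP replicate 2, 688 without LB replicate 2, 987 without UP replicate 3 and 1276 without LB replicate 3. The median log2 fold change of the cutin, suberin and wax list was -3.15 between UP and LB (22 called lower), and 0.12 between LB and AB. For the 20 genes of highest degree these medians were -4.49 (20 called lower) and 0.24. ECR Cl15187 had 7003, 11864 and 12824 counts in LB, and its log2 fold change of -1.15 between UP and LB had an adjusted p of 0.0132. BAS1 Cl22875 had 727, 753 and 717 counts in LB, close to AB replicates 1 and 2 and far below UP (log2 fold change 2.23 between UP and LB, adjusted p = 0.00213).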

How the data were processed

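RNA from 3 biological replicates of each of 3 tissues in each of 2 clones was sequenced as paired-end mRNA libraries. Per the labels and the study's methods, the authors aligned reads with Hisat2 to the Chinese fir genome and deposited a table of raw read counts per gene. The program that counted reads, its strand setting and its treatment of reads with several matches have no source here, so overlapping genes on opposite strands and near-identical copies are uncertain.

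The deposited counts were tested in R 4.3.3 with edgeR 4.0.16: filterByExpr on the 6 UP and AB libraries of C1, TMM factors, and the quasi-likelihood F-test on tissue, with Benjamini-Hochberg adjustment. A call needs a fold change of at least 2 and a false discovery rate under 0.05, the thresholds of the study. DESeq2, which the study used for its own differential expression, was run in version 1.42.0 as an alternative. Standard errors are on the log2 scale. CPM values use TMM factors over all 18 libraries (0.842 to 1.09), and log2 values a pseudocount of 1. The other contrasts were fitted the same way on their own libraries, and the interaction on the UP and AB libraries of both clones. An exact permutation test of 3 against 3 libraries cannot go below p = 0.1, so none was used. The scripts were tested on simulated data.

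Whether replicate numbers pair the samples was checked by the correlation, across genes, of the deviations of UP and AB libraries from their group means. It was 0.508, 0.104 and 0.318 for the same-numbered libraries 1, 2 and 3, each over the 0.1 set as a minimum, and -0.452 to 0.105 for libraries of different number. The value for number 2 only just passed, and UP replicate 3 with AB replicate 2 reached 0.105. The labels give the numbers, and no source states that a number marks a tree.

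Genes named are those that the study lists or discusses with an identifier (56), and, outside the pink module and the lists, the 2 genes of lowest p in each direction with no overlap and a fold change of at least 2 (none was called, as the rule had asked). The members and lists were chosen with earlier results of these data known, and the study chose its lists on these libraries. Alternatives were other scalings, filters and designs and each replicate left out. Fits that combine the absence of AB replicate 3 with another choice, and the 9-library fit with the block, were added after seeing the data. No genome, annotation or sequence was used here.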

Additional observations from a re-analysis of the deposited data

How the results depend on the processing

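The count of genes called between UP and AB of C1 was 0 under TMM, other scalings, other filters, a test against the fold threshold and when any library but AB replicate 3 was left out (range 0 to 435). It was 1482 with DESeq2, 255 over 9 C1 libraries, 1 over 18 libraries and 189 with the replicate block. Among alternatives added after seeing the data it was 923 over 9 libraries without AB replicate 3, 78 over 9 libraries with the block, 1023 with the block and without AB replicate 3, and 2675 with DESeq2 and without AB replicate 3. The block changed the call of 20 named genes and the count for C1 alone. It left 0 calls for UP against AB in C11, for LB against AB and for the interaction. DESeq2 called 416 genes between UP and AB in C11, 133 between LB and AB, 3068 between UP and LB (590 to 2045 with a library left out in edgeR) and 16 for the interaction, which had 2 over 18 libraries and 0 to 1 with a library left out. The first component held 42.8% of the variance without scaling and 29.7% to 35.5% with a library left out. Genes at 0 in AB numbered 49 at a minimum of 5 counts, 2 at 20 counts and 20 to 70 with a library left out, and genes at 0 in UP 35, 4 and 21 to 49.

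With a library left out, list medians ranged from -0.87 to -0.41 for the pink module, -4.60 to -3.36 for the 20 genes of highest degree, -3.57 to -1.90 for cutin, suberin and wax, -3.84 to -2.21 for sphingolipid, -1.96 to -1.09 for glycerolipid, -0.86 to -0.37 for fatty acid biosynthesis, -1.14 to -0.55 for hormone signalling, -1.49 to -1.06 for starch and sucrose, -2.06 to -1.14 for plant-pathogen interaction, -2.27 to -1.25 for MAPK and -1.96 to -1.02 for phenylpropanoids. Over 9 libraries and with DESeq2, each without AB replicate 3, the medians were -0.92 and -0.93 (pink module), -1.38 and -1.38 (hormone signalling), -3.47 and -3.50 (cutin), -2.34 and -2.34 (MAPK) and -1.97 and -1.98 (phenylpropanoids, which had -1.90 with the block and without that library). The MAPK median was -2.01 with no filter, -2.06 with DESeq2, -1.86 over 9 libraries and -2.04 over 18, and the phenylpropanoid median -1.75 with DESeq2 and -1.74 over 9 libraries.

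The sign of DAO NG_11922 turned: its log2 fold change was -0.033 with RLE factors, -0.019 with library size alone, -0.036 with DESeq2, -0.037 over 9 libraries, -0.023 over 18, -0.19 with the block, -0.17 over 9 libraries with the block, -0.043 with the block and without AB replicate 3, -0.43 over 9 libraries and -0.43 with DESeq2, both without that library, and -1.49 to 1.12 with a library left out. DAO Cl07806 was at 0.093 with the block and without AB replicate 3, LRK10 Cl29067 at -0.080 over 9 libraries and -0.085 with DESeq2, both without it, and PARC Cl08351 at 0.43 with the block. With a library left out, the range included 0 for Cl07806 (-0.64 to 0.23), PDR1 Cl33669 (-0.0079 to 2.58), Cl29067 (-0.13 to 1.47), LRK10 Cl16476 (-0.96 to 0.086), Cl08351 (-1.09 to 0.32) and PMEI3 Cl27779 (-0.29 to 0.29). The cause was not tested.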
